A study of Mus musculus with 8 samples.

Results

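Transcript levels of 8 genes for secreted antibacterial lectins and agglutinins were followed in the distal ileum of Cftr null (KO) mice and wild-type (WT) littermates. The genes, Reg3b, Reg3g, Reg3a, Reg1, Dmbt1, Zg16, Itln1 and Saa1, were chosen by symbol. All 8 were found among the 41128 symbols of the deposited table, and all 8 passed the filter on low values. The KO mice carried the Cftrtm1Cam null allele, congenic on FVB, and the WT mice were their sex-matched Cftr N/N littermates. Every mouse had a diet low in fiber and an osmotic laxative, which had been stopped for more than 4 days at sampling. Couples 1 and 3 (female) and couple 2 (male) gave 3 untreated KO and 3 untreated WT libraries. A further female couple, 1 KO and 1 WT mouse, was given antibiotics in the water, metronidazole at 0.5 g/L together with ciprofloxacin at 0.3 g/L. Ages of the mice are not stated in the labels. Each library is the polyadenylated RNA of a whole tissue section of 1 mouse, taken within 6 cm of the ileocecal valve, so fewer cells of a type and less RNA per cell cannot be told apart.

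These proteins are released onto the gut surface, where they bind sugars, cell wall or lipid components of bacteria. Reg3 proteins are small C-type lectins made by enterocytes and Paneth cells, and Reg3g kills Gram-positive bacteria by binding peptidoglycan. Dmbt1 is a large scavenger receptor glycoprotein that agglutinates bacteria, and Zg16 is a goblet cell lectin that aggregates Gram-positive bacteria in mucus. Itln1 is an intelectin that binds microbial glycans. Saa1 is an acute phase protein that binds retinol, also made by the ileal epithelium. In mice, interleukin-22, signals from Toll-like receptors through Myd88, and the transcription factor Stat3 are known inducers of Reg3b, Reg3g and Saa genes.

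Values are the authors' and were taken as RPKM-like (scaled for library size and gene length), which is an inference. Levels of different genes are set side by side on that reading only. Their pattern is that of quantile normalization in 3 sets, namely couples 1 and 2 together, couple 3, and the couple given antibiotics. In such a set the value of a gene is fixed by its rank, and no read depth can be recovered. Cftr checked the genotype labels, with 3.74, 2.65 and 3.17 in KO and 12.4, 9.94 and 10.1 in WT libraries of couples 1, 2 and 3, and 4.94 in KO and 13.8 in WT of the antibiotic couple. Fabp6, the ileal bile acid binding protein that marks this part of the gut, was 458 or higher in each library. It was lower in KO in each couple, at 779, 1059 and 2273 in KO and 5128, 6151 and 6881 in WT libraries of couples 1, 2 and 3. In the antibiotic couple Fabp6 was 458 in KO and 4955 in WT. Whether the sections of the 2 genotypes matched in position was not tested. In the antibiotic WT library 376 genes shared non-zero values, against 18 to 26 in the others. The 8 genes did not meet the rules for such faults, and values of that library for other genes are less certain. Each library is a separate mouse, so p-values of untreated KO against WT measure the spread between these few mice. Those that set the antibiotic couple against the untreated couples use the spread of the 3 untreated couples alone.

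Reg3b, Reg3g and Dmbt1 were each about 8 to 9 times higher on the fitted scale in untreated KO ileum than in WT ileum, and Saa1 was of similar size but varied more between couples. Reg3a and Zg16 were lower in KO in each untreated couple, and Reg1 and Itln1 had no shared direction. By limma without a term for the couple, 1 of the 8 genes rose, namely Dmbt1, where 1.15% of 11717 tested genes rose and 1.01% fell (2.16% in either direction). With the couple as a block, 3 rose, namely Reg3b, Reg3g and Dmbt1, where 8.4% of the tested genes rose and 9.91% fell (18.3% in either direction). KO was higher in 3 of 3 untreated couples for 4 of the 8 genes, beside 28.1% of the tested genes, and lower in 3 of 3 for 2 of the 8, beside 32.5%. Every KO library lay above every WT library for 4 of the 8, beside 10.4% of the tested genes, and below for 0 of the 8, beside 12.1%. The median log2 change of the 8 genes was 1.51, beside -0.01 for all tested genes. No gene of the 8 lay near their median of 1.51. Reg3b, Reg3g, Dmbt1 and Saa1 had changes of 2.98 to 3.19, and Reg3a, Zg16, Reg1 and Itln1 of -1.05 to 0.05.

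**Figure D1:**
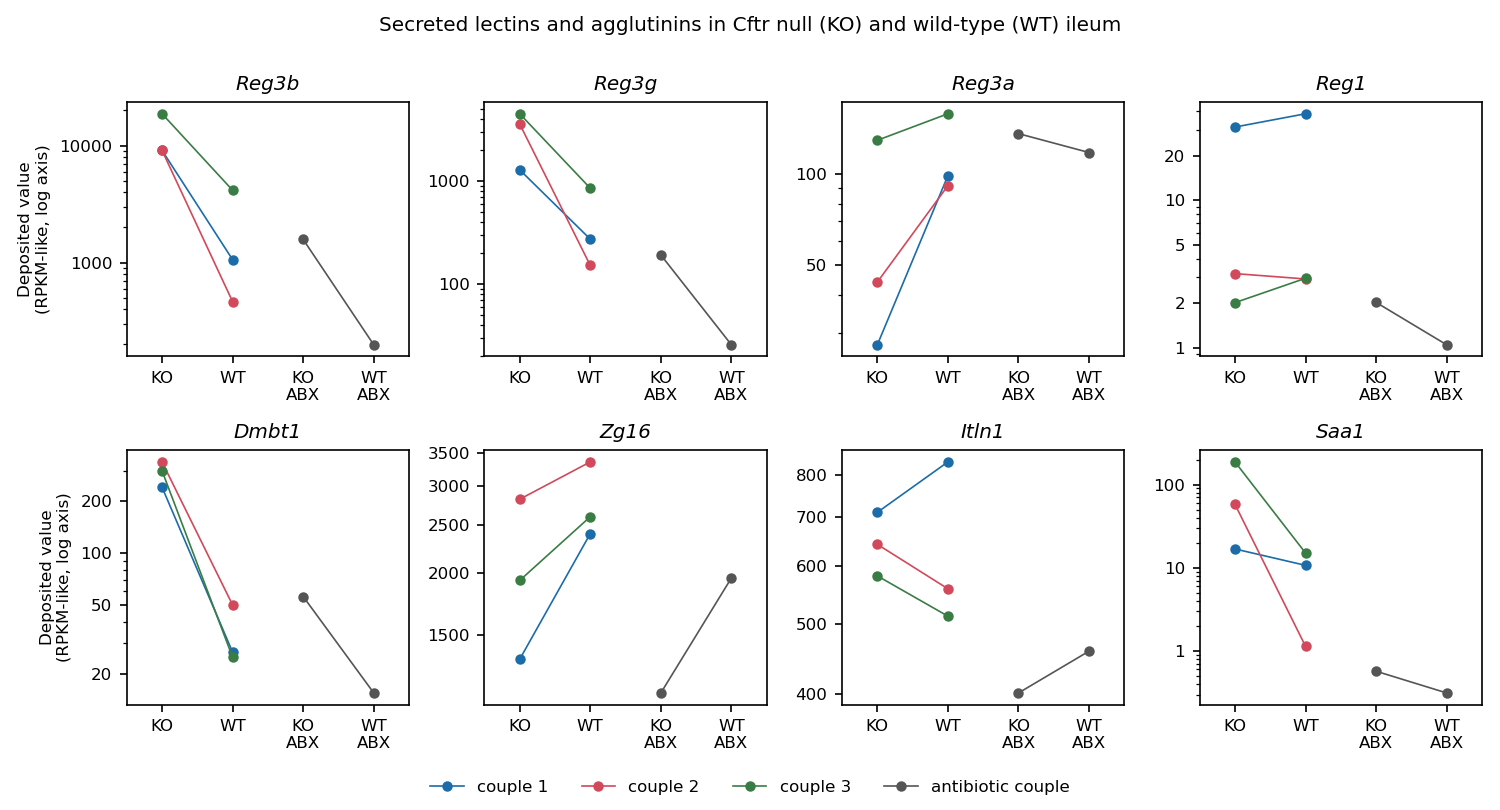
Deposited RPKM-like value (log axis, scaled separately in each panel) of each gene in untreated KO and WT libraries and in the KO and WT libraries of the antibiotic couple (ABX). Each point is 1 library and lines join littermates: in Reg3b, Reg3g, Dmbt1 and Saa1 the 3 untreated KO points lie above the 3 WT points.

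Reg3b, which binds bacterial surface lipids and peptidoglycan, was 9087, 9087 and 18690 in KO libraries of couples 1, 2 and 3, against 1059, 463.6 and 4148 in WT libraries. The groups did not overlap, and couple 3 had the highest value of each genotype. The log2 change was 3.19 (SE 0.80, limma adjusted p = 0.102 without the block; SE 0.42 and adjusted p = 0.0187 with it), and KO was higher in 3 of 3 couples. Reg3b ranked at place 2 among all genes in KO of couples 1 and 2 and at place 1 in KO of couple 3, against places 34, 81 and 10 in WT. The equal values in KO of couples 1 and 2 are the value that their quantile set gives to place 2. In KO of couple 3 it had the value that mt-Co1, a mitochondrial transcript, had in WT. Its KO values thus sit at the top of the scale of each set and show its order among genes, not how far it stood above the next gene.

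Reg3g was 1288, 3582 and 4501 in KO libraries of couples 1, 2 and 3, against 273.7, 152.2 and 853.8 in WT libraries. The groups did not overlap, and the ratio within couples was 4.71, 23.5 and 5.27. Couple 2, the male couple, had both the lowest WT value and the largest ratio. The log2 change of Reg3g was 3.06 (SE 0.71, limma adjusted p = 0.0882 without the block and 0.0262 with it). Leaving out couple 2 gave 2.31 and leaving out couple 3 gave 3.39 with the block, with adjusted p = 0.022 and 0.0407 by limma. Without couple 1 the calls with the block were lost for Reg3g (limma adjusted p = 0.0575) and Reg3b (0.0622). The ratio of Reg3b to Reg3g was 7.06, 2.54 and 4.15 in KO and 3.87, 3.05 and 4.86 in WT libraries of couples 1, 2 and 3, ranges that overlap.

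**Figure D2:**
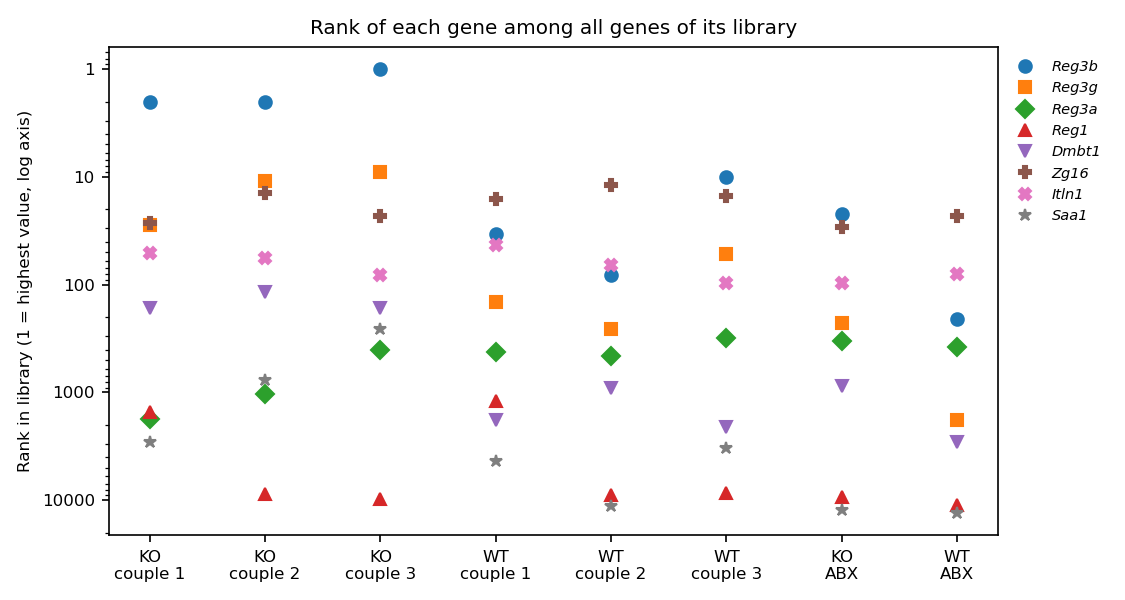
Rank of each of the 8 genes among all genes of its library (log axis, place 1 at the top). Reg3b stands at places 1 or 2 in the untreated KO libraries, while Zg16 stays between places 12 and 29 in all 8 libraries.

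Reg3a, of the same gene family, was not higher in KO in the untreated couples. It was 27.4, 44 and 129.4 in KO libraries of couples 1, 2 and 3, against 98.9, 91.7 and 158.3 in WT libraries. KO was lower in 3 of 3 couples, but the groups overlapped because KO of couple 3 was above WT of couples 1 and 2. Its log2 change was -1.05 (SE 0.53, limma adjusted p = 0.394, and 0.0708 with the block). With the block it was -0.67 without couple 1, -1.05 without couple 2 and -1.43 without couple 3 (limma adjusted p = 0.127, 0.181 and 0.0358). The ratio of Reg3b to Reg3a was 332, 206 and 144 in KO and 10.7, 5.06 and 26.2 in WT libraries of couples 1, 2 and 3, with no overlap.

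The 4 Reg genes among the 8 lie together on chromosome 6 of GRCm38. Reg3b spans 78370657 to 78373466 and Reg3a 78380709 to 78383827, both on the plus strand. Reg1 spans 78422711 to 78428667 on the plus strand, and Reg3g 78466269 to 78468872 on the minus strand. Of the stretches of 50 bases in the GENCODE transcripts of Reg3b, Reg3g and Reg3a, 0 occur exactly in the transcript of another gene. For Saa1, 31.5% of them occur in Saa2 or Saa3, so reads of Saa1 and Saa2 may have been split or shared by the authors' counting, whose rule was not stated. Dmbt1, on chromosome 7 from 131032053 to 131121630 (plus strand), lies inside the long minus-strand annotation of Fgfr2. The library protocol keeps no strand, so reads of the pair cannot be told apart where exons overlap. Promoters of 6 of the 8 genes were matched in the RefSeq table (GRCm38.p6, C57BL/6J, while the mice were FVB). Those of Reg3b, Reg3g and Reg3a are shown because the first pair rose with the block and Reg3a did not. Each runs from 250 bases before to 50 bases after the start site, 5' to 3' on the gene's strand. The RefSeq start of Reg3b lies inside the longer GENCODE span given above. Capitals mark TTCNNNGAA, a motif that Stat proteins can bind, and TATAAA, the TATA box core, found on either strand (TTTATA is TATAAA read on the other strand).
Reg3b promoter, chr6:78370635-78370934, plus strand: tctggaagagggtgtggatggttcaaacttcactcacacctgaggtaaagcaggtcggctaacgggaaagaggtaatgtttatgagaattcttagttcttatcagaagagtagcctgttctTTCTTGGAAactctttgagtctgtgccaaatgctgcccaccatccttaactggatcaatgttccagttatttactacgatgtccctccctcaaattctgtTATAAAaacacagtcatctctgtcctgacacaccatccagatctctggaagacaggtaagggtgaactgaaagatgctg
Reg3g promoter, chr6:78468825-78469124, minus strand: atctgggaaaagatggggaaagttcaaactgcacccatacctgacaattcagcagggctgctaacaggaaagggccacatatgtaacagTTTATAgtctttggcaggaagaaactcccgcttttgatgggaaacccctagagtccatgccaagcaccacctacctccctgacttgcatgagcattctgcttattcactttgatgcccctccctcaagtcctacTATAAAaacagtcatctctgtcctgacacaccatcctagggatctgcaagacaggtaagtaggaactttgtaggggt
Reg3a promoter, chr6:78380459-78380758, plus strand: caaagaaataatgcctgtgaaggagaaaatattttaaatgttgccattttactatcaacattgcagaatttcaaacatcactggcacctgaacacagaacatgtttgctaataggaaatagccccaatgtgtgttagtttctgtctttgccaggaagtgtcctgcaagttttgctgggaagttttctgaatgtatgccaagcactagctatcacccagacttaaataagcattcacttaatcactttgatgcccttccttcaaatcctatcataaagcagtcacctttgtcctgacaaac
TTCNNNGAA occurs once in the Reg3b window, as TTCTTGGAA starting 129 bases before the start site, and TTCNNNGAA is not in the windows of the other 5 genes. It is present in 8.3% of the 32851 promoters in the table. TATAAA starts 29 bases before the start site of Reg3b, 27 before that of Reg3g and 30 before that of Reg1, and occurs in 13.6% of all promoters. A form with 4 bases in place of 3 between TTC and GAA, present in 6.95% of promoters, was found in the Reg1 window and not in the other 5. In a global alignment the windows of Reg3b and Reg3g had 69% identical columns, against 49.9% for Reg3b and Reg3a and 55.2% for Reg3g and Reg3a. Pairs with the window of Reg1, Itln1 or Saa1 had 48.8 to 53.5%. These matches are descriptions of letters and not binding sites.

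Reg1, a C-type lectin best known from the acinar cells of the pancreas, separated couples and not genotypes. It was 31.3, 3.18 and 2.02 in KO libraries of couples 1, 2 and 3, against 38.5, 2.92 and 2.95 in WT libraries. Both mice of couple 1 were high and the other 4 untreated mice were low. The log2 change was -0.20 (SE 1.13, limma adjusted p = 0.958). The acinar genes Ctrb1 (chymotrypsinogen) and Prss2 (trypsinogen) were highest in WT of couple 1, at 11.4 and 6.53. In KO of couple 1, with about the same Reg1 value, Ctrb1 was 0.134 and Prss2 was 0.0329. Of 20 listed acinar markers 5 were tested and 0 were called without the block (1 fell with it, Pnliprp2). Their summed level was 45 to 61.7 in KO and 60 to 137 in WT libraries, most of it from Clps and Pnliprp2. Ptf1a, an acinar transcription factor, was listed at 0 in each library, which was not read as absence. The part of pancreatic RNA in Reg1 was not tested.

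Dmbt1 was the most even of the changed genes across couples. It was 241.3, 338.5 and 300.5 in KO libraries of couples 1, 2 and 3, against 26.6, 50 and 24.9 in WT libraries. The lowest KO library was more than 4 times the highest WT library, and the ratio within couples was 9.06, 6.77 and 12.1. The log2 change of Dmbt1 was 3.14 (SE 0.30, limma adjusted p = 0.00478; SE 0.17 and adjusted p = 0.00489 with the block). The call held whichever single library was left out, and was lost when a whole couple was left out without the block (adjusted p = 0.0596 to 0.119).

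Zg16 and Itln1, lectins of goblet and Paneth cells, were abundant in both genotypes. Zg16 was 1338, 2818 and 1931 in KO libraries of couples 1, 2 and 3, against 2401, 3353 and 2598 in WT libraries. Each KO mouse was below its littermate, but KO of couple 2 was above WT of couples 1 and 3. The log2 change of Zg16 was -0.51 (SE 0.40, limma adjusted p = 0.592, and 0.0872 with the block). Itln1 was 710.3, 642.1 and 581.2 in KO and 833, 558 and 511.8 in WT libraries. The groups overlapped, with KO lower in couple 1 and higher in couples 2 and 3, and the log2 change was 0.05 (SE 0.29, limma adjusted p = 0.957).

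Goblet cell markers moved in both directions beside Zg16. Of 12 listed and tested, 0 were called without the block, while with it Retnlb (1.84) and Spink4 (0.65) rose and Fcgbp (-1.23) and Bcas1 (-0.40) fell. The median log2 change was -0.11, and the summed level was 2410 to 3280 in KO and 2120 to 3230 in WT libraries. Muc2, the gel-forming mucin, picked out after its values were seen, was 89.0, 90.9 and 64.4 in KO and 122.7, 331.1 and 121.2 in WT libraries (log2 change -1.07, limma adjusted p = 0.25, and 0.0603 with the block). Of 13 Paneth cell markers, Itln1 itself included, 0 were called without the block and 4 rose with it, namely Mptx2 (1.30), Mmp7 (1.11), Defa24 (0.73) and Pla2g2a (0.62). Their sum was 11900 to 15200 in KO and 7430 to 12900 in WT libraries. The part of cell numbers in the values of Zg16 and Itln1 was not tested.

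Among the 8 genes, Saa1 had the widest range of KO to WT ratios across the untreated couples. It was 16.8, 57.9 and 187.4 in KO libraries of couples 1, 2 and 3, against 10.7, 1.14 and 15.0 in WT libraries. The groups did not overlap, although KO of couple 1 was only slightly above WT of couple 3, and the ratio within couples was 1.57, 50.9 and 12.5. The log2 change of Saa1 was 2.98 (SE 0.98, limma adjusted p = 0.19, and 0.0655 with the block), and with the block it depended on the couples. It was 4.17 without couple 1, 2.08 without couple 2 and 2.70 without couple 3 (limma adjusted p = 0.0319, 0.171 and 0.159). Its paralogs were lower in each library, with Saa2 at 1.47, 5.59 and 0 in KO and 0.283, 0.00112 and 0 in WT libraries. Saa3 was 8.81, 2.92 and 2.23 in KO and 0.389, 0.115 and 0.938 in WT libraries, so that Saa1 was only 1.91 times Saa3 in KO of couple 1.

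Because Saa1 is also a liver gene, hepatocyte transcripts were set beside it. Alb, the serum albumin gene, was 110.4, 0.0419 and 10.7 in KO and 0.15, 0.163 and 0.0891 in WT libraries of couples 1, 2 and 3, and 357.4 in KO and 397.2 in WT of the antibiotic couple. The 3 libraries with the highest Alb had 16.8, 0.571 and 0.313 of Saa1, and KO of couple 2 had 57.9 of Saa1 with Alb near 0. KO of couple 3, with the highest Saa1 (187.4), had 10.7 of Alb, against 0.0891 in its WT littermate. Other hepatocyte markers did not all share the order of Alb. Serpina1a did in its 3 highest libraries only, with 5.44 in KO of couple 1 and 18.7 in KO and 19.8 in WT of the antibiotic couple. It was listed at 0 in KO of couple 3 and was 2.02 in WT of couple 2. Ttr was 11.5 in KO of couple 1, against 4.37 in KO and 5.81 in WT of the antibiotic couple. Ahsg was 16.98 in KO of couple 1 and was listed at 0 in both antibiotic libraries. Of 12 hepatocyte markers 3 were tested, 0 were called without the block and 1, Tat, rose with it. Their summed level was 85.2 to 283 in KO and 77.6 to 118 in WT libraries, mostly Cps1, which enterocytes also express, in each untreated library other than KO of couple 1. The part of liver RNA in Saa1 was not tested.

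**Figure D3:**
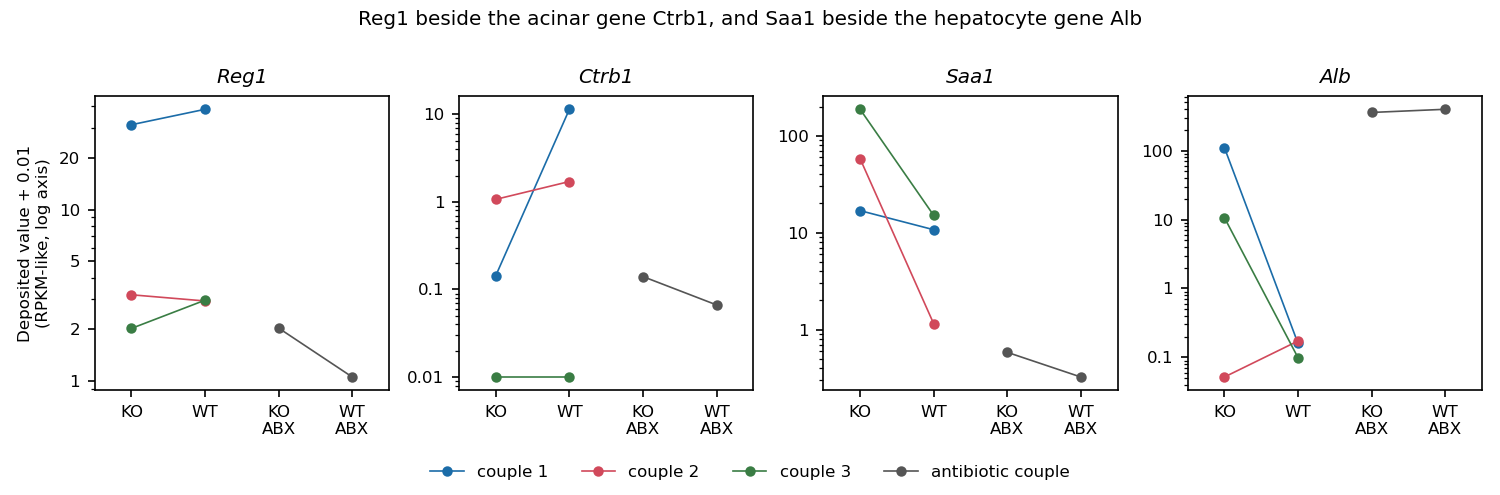
Deposited value plus 0.01 (log axis, scaled separately in each panel) of Reg1, the acinar gene Ctrb1, Saa1 and the hepatocyte gene Alb in KO and WT libraries, with lines joining littermates (ABX, antibiotic couple). Reg1 is high in both mice of couple 1 while Ctrb1 is high in the WT mouse alone. Alb is highest in the antibiotic couple, where Saa1 is lowest, an order of libraries that not all hepatocyte markers share. Saa1 is highest in KO of couple 3, where Alb is 10.7, above its WT littermate.

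In the couple given antibiotics most of the 8 genes were at lower levels than in untreated mice of the same genotype. In KO, 6 of 8 lay below all 3 untreated values (40.6% of 11534 genes compared), Reg1 lay inside their range and Reg3a lay above it (19.9%). In WT, 7 of 8 lay below (39.7%), 0 lay above (10.4%) and Reg3a lay inside. Reg3b was 1577 in KO and 198.5 in WT, Reg3g was 192.3 in KO and 25.9 in WT, and Dmbt1 was 56 in KO and 15.4 in WT. Saa1 was 0.571 in KO and 0.313 in WT, and Reg1 was 2.03 in KO and 1.04 in WT. Reg3g in the WT mouse was 5.88 times below the lowest untreated WT value, and Saa1 in the KO mouse 29.5 times below the lowest untreated KO value. Treatment coincides with 1 litter and 1 normalization set, so antibiotic, litter and set cannot be told apart, and these levels were not tested. Enterocyte markers summed to 31500 in KO and 27000 in WT of the antibiotic couple, goblet cell markers to 1750 in KO and 2130 in WT, and Paneth cell markers to 5560 in KO and 1980 in WT. In the KO library all 3 sums lay outside the range of untreated KO, the enterocyte sum above it and the others below. In the WT library several Paneth genes are among those with faulty values. The part of these cell types in the levels of the 8 genes was not tested.

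Within the antibiotic couple, KO was at least 2-fold above WT for 3 of the 8 genes, Reg3b, Reg3g and Dmbt1, beside 3.3% of the 11534 genes, and at least 2-fold below for 0 of the 8, beside 0.962%. The ratio of KO to WT was 7.94 for Reg3b, 7.44 for Reg3g and 3.63 for Dmbt1. Each ratio compares 1 mouse with 1 mouse. For Reg3b and Reg3g these ratios lay inside the range of the untreated couples, and for Dmbt1 below it. The KO minus WT difference in the antibiotic couple, minus that of the untreated couples, was -0.20 for Reg3b (log2, SE 0.83), -0.21 for Reg3g (SE 0.98) and -1.34 for Dmbt1 (SE 0.33). The limma adjusted p-values were 0.914, 0.925 and 0.203. The KO to WT ratio of Saa1 in the antibiotic couple was 1.82, inside the untreated range of 1.57 to 50.9. Both antibiotic values of Saa1 were below 1, where log2(value + 1) shrinks differences. For Saa1 the antibiotic minus untreated difference was -2.72 (SE 1.61, limma adjusted p = 0.45). Of all genes 0 passed this test by limma and 16% had an unadjusted p under 0.05, so equal effects in treated and untreated couples are not shown for any of the 8.

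Reg3a and Zg16 were 136.1 and 1144 in the antibiotic KO library, against 117.9 and 1954 in its WT littermate, and Itln1 was 401.6 in KO and 458.3 in WT. Zg16 was thus lower in KO in 4 of 4 couples, as in 21.1% of genes, and Reg3b, Reg3g, Dmbt1 and Saa1 were higher in KO in 4 of 4, as in 14% of genes. Reg3a had a ratio of 1.15 here, against 0.277, 0.48 and 0.817 in the untreated couples. The difference was 1.25 on the log2 scale (SE 0.59, limma adjusted p = 0.376).

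**Figure D4:**
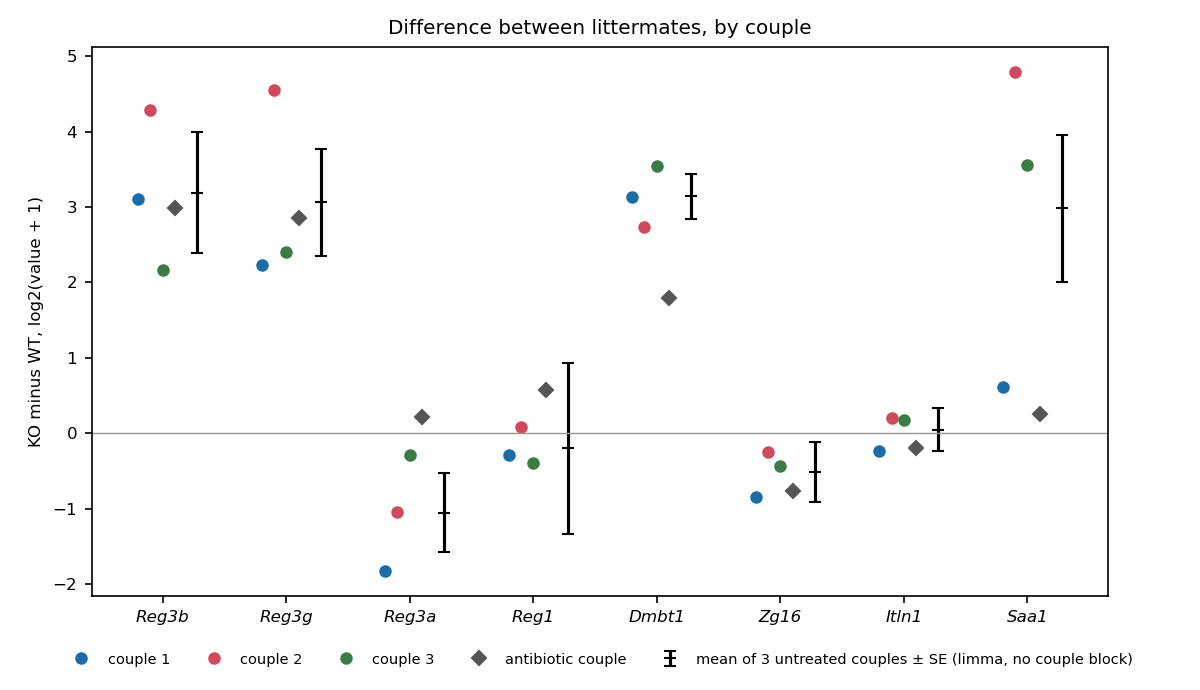
KO minus WT difference in log2(value + 1) for each of the 8 genes in couples 1, 2 and 3 (circles) and in the antibiotic couple (diamonds), with the mean of the untreated couples ± SE from limma without the couple block. The means of Reg3b and Reg3g lie near 3 and their antibiotic values at 2.98 and 2.85, while the antibiotic values of Dmbt1 and Saa1 are 1.79 and 0.26. Saa1 was below 1 in both antibiotic libraries, where log2(value + 1) shrinks differences.

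By level, untreated KO ileum was ordered Reg3b, Reg3g, Zg16, Itln1, Dmbt1, Saa1, Reg3a and Reg1, with group means of 12300, 3120, 2030, 645, 293, 87.4, 66.9 and 12.2. The ranges over 3 libraries overlapped between Reg3g and Zg16, between Saa1 and Reg3a, and between Reg3a and Reg1. In untreated WT ileum the order was Zg16, Reg3b, Itln1, Reg3g, Reg3a, Dmbt1, Reg1 and Saa1, with means of 2780, 1890, 634, 427, 116, 33.8, 14.8 and 8.96. There the ranges overlapped between each pair of neighbours except Reg3a and Dmbt1. Summed, the 8 genes made up 3.62, 4.71 and 6.63% of all values in KO and 1.35, 1.33 and 2.09% in WT libraries of couples 1, 2 and 3, against 1.01% in KO and 0.766% in WT of the antibiotic couple.

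Of 35 listed genes of the known inducing pathways 23 were tested, with a median log2 change of 0.06. Without the block 2 rose and 0 fell, beside 1.15% and 1.01% of all tested genes, and with it 4 rose and 2 fell, beside 8.4% and 9.91%. Socs3, the feedback inhibitor that Stat3 induces, was 22.4, 23.2 and 18.2 in KO and 7.41, 6.96 and 6.49 in WT libraries (log2 change 1.48, SE 0.16, limma adjusted p = 0.00644). Tlr2, a receptor for bacterial lipoproteins, had a log2 change of 1.00 (limma adjusted p = 0.0397). With the block the NF-kB pathway genes Nfkbia (0.68) and Nfkbiz (1.27) rose too, while Il22ra1 (-0.56), a chain of the interleukin-22 receptor, fell. Stat3 itself had a log2 change of 0.06. Il22 was 0.335, 0.255 and 0 in KO libraries of couples 1, 2 and 3 and was listed at 0 in the other 5 libraries, and it was below the filter. The libraries of couple 3 and of the antibiotic couple listed 11912 to 13749 genes above 0, against 20896 in couples 1 and 2, so a 0 there was not read as absence. In the antibiotic couple Socs3 was 10.8 in KO and 9.12 in WT.

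Of 20 listed paralogs and other secreted lectins or binding proteins, 17 were in the table, 11 were tested and 0 were called without the block (median log2 change 0.36). The most abundant were Lgals2 (0.13), Lgals4 (0.13) and Pla2g2a (0.62), a pair of galectins and a phospholipase that attacks bacterial membranes. With the block 5 rose, namely Mbl2 (2.23), a mannose-binding lectin, Saa3 (1.79), Lypd8 (0.84), which binds flagella, Pla2g2a and Lgals3 (0.46). Fcgbp (-1.23) and Clec2h (-0.68) fell. Among 20 other mucosal defence genes 12 were tested, and 4 rose and 0 fell without the block (8 rose with it). They were Duoxa2 (3.80) and Duox2 (2.18), of the epithelial hydrogen peroxide generator, Fut2 (2.62), the fucosyltransferase of epithelial surface glycans, and Nos2 (1.82), the inducible nitric oxide synthase. Duoxa2 was 1.51 in KO and 1.82 in WT of the antibiotic couple, where the KO minus WT difference lay -3.97 from that of the untreated couples (log2, SE 0.63, limma adjusted p = 0.129).

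**Figure D5:**
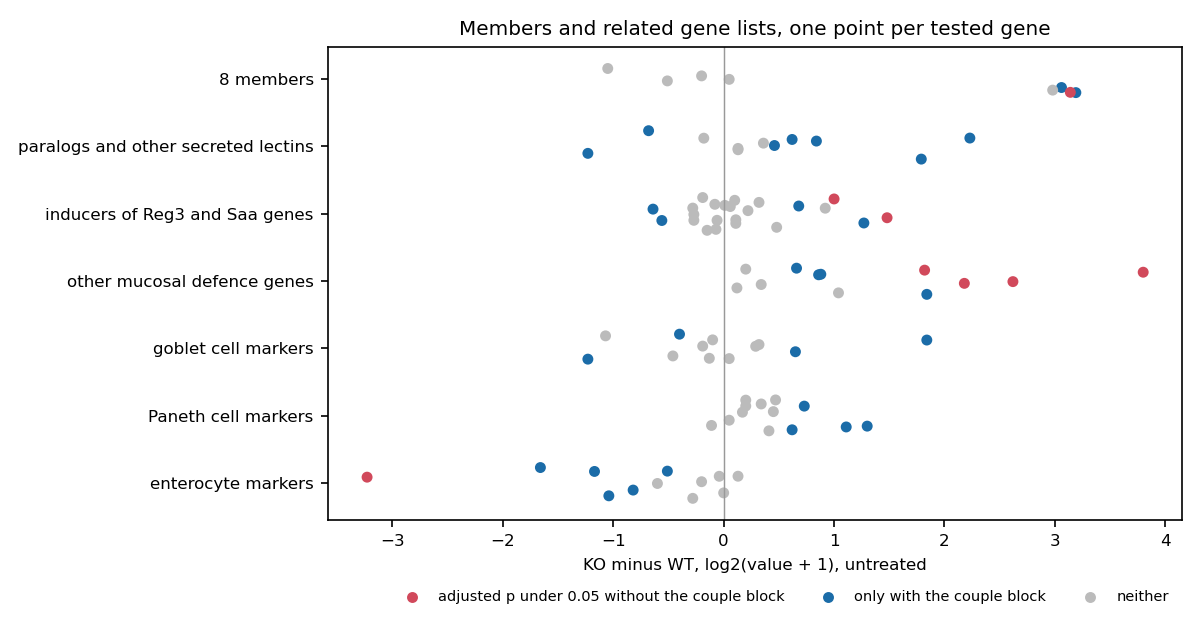
KO minus WT difference in log2(value + 1), untreated, for the 8 genes and 6 related lists, 1 point per tested gene, coloured by whether limma called it without the couple block, only with it, or neither. Of the 8 genes, 4 lie near 3, beyond all points of the paralog and inducer lists. Duoxa2 of the mucosal defence list lies higher than all 8, at 3.80.

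Markers of other cells differed between libraries too. Of 12 enterocyte markers Lct fell without the block and 6 fell with it, and their sum was 10200 to 17800 in KO and 18500 to 26000 in WT libraries. Neutrophil markers summed to 0 to 20.9 in KO and 0 to 0.785 in WT libraries, highest in KO of couple 1, with Mpo listed at 0 in each library. Of 12 B and plasma cell markers 10 were tested and 3 rose without the block (Mzb1, Derl3 and Prdm1) and 5 with it, with sums of 393 to 736 in KO and 222 to 326 in WT libraries. Of 7 tested follicle markers 0 were called without the block and 1 rose with it (Ccl20, 1.14). They summed to 11 to 58.8 in KO and 8.42 to 32 in WT libraries, and to 45.4 in KO and 4.94 in WT of the antibiotic couple. Their part in the changes of the 8 genes was not tested.

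The genes whose log2 values over all 8 libraries were most like those of Reg3g, by Pearson correlation among 11533 genes, were Tssc1 (r = 0.984), Unc5cl (0.976) and Cdpf1 (0.975). For Dmbt1 they were Ciita (0.994), Cd14 (0.990) and Cd74 (0.987), and for Zg16 C2cd2 (0.977), Tmem246 (0.975) and 2510003E04Rik (0.974). Unc5cl was 20.4, 27.5 and 31.5 in KO and 9.74, 11.9 and 14.8 in WT libraries, and 9.68 in KO and 5.55 in WT of the antibiotic couple. Over the 8 libraries Tssc1 ran only from 9.489 to 14.54 and Cdpf1 from 3.555 to 7.031, against 25.87 to 4501 for Reg3g. Cd74 was 1189, 1643 and 1691 in KO and 271.6, 477.1 and 362.6 in WT libraries, and 482.2 in KO and 167.7 in WT of the antibiotic couple. The libraries fall into genotypes and normalization sets, which all these genes share, so the correlations are descriptions over 8 libraries without a test.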

How the data were processed

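RNA of 8 mice was sequenced, 1 library each. Per the series' design text, the authors used an Illumina HiSeq and an Ion Proton instrument (which library ran where is not stated) and CLC Genomics Workbench 7.5, with GRCm38 and its release 76 annotation as the target and parameters left at default. The authors deposited 1 value per gene and library, with no unit in the file header, and these deposited values were taken as RPKM, reads scaled by the authors to library size and gene length. The choice rests on non-integer values that fell with exon length (slopes of log2 value on log2 length -0.55 to -0.36), and the scale stays an inference. The authors' values had identical sorted values in couples 1 and 2 and mostly identical ones within couple 3 and within the antibiotic couple, the pattern of quantile normalization. No depth and so no counting interval is known.

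Log2(value + 1) of genes with at least 1 in at least 3 libraries was tested with limma 3.58.1 (trend in the prior variance, R 4.3.3, Benjamini-Hochberg, threshold 0.05) on the 6 untreated libraries without a block. The log2 scale understates changes of low genes. Couple numbers stand for litters in the labels, and deviations from group means correlated between littermates (0.62, 0.64 and 0.51 across genes), so blocked values by couple are printed where they change a call. The antibiotic couple was compared through the 4 within-couple differences. The spread in that test comes from the 3 untreated couples, and the lone antibiotic couple is assumed to vary like them. For that test 405 genes were left out whose values in the antibiotic WT column were shared with other genes, or were 0 or far below the littermate, a rule chosen after the values were seen. The tests were tried on simulated data. Promoters were aligned with Biopython 1.88. The 8 genes, the 11 gene lists and the tests were chosen with earlier results of these data known. All 8 genes were named. Of each list, up to 6 called genes with the largest change or, where none was called, the 3 most abundant were eligible for naming, as were the 3 genes most like Reg3g, Dmbt1 and Zg16. Genes called only with the block, and genes given as marker values, were named after their values were seen. Alternatives covered the pseudocount, filter, variance trend, scaling, block and left-out libraries or couples. The result of 1 listed gene is not reported here.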

Additional observations from a re-analysis of the deposited data

Results flagged for a closer look

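Reg3a was lower in KO in the 3 untreated couples and higher in KO in the antibiotic couple, and this opposite direction is why it is listed here. The difference between the antibiotic couple and the untreated couples was 1.25 on the log2 scale (SE 0.59, limma adjusted p = 0.376). Reg1 was higher in KO in the male couple (log2 difference 0.09) and lower in KO in the 2 untreated female couples (-0.29 and -0.39). That gap of 0.43 rests on 1 male couple and was not tested.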

How the results depend on the processing

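With the replicate block the numbers of genes higher and lower in KO were 984 and 1161, against 135 and 118 without it, and without a filter on low values they were 7 and 4. They ran from 0 to 74 (higher) and 0 to 69 (lower) when libraries or couples were left out, the 0 coming from each left-out couple. With the block and a left-out couple, 263, 221 and 275 genes were lower without couples 1, 2 and 3, and 248 were higher without couple 3. With the block the log2 changes of Reg3b (3.19) and Reg3g (3.06) passed the threshold, and so did Reg3b without couple 2 (2.64) or 3 (3.69), Reg3g without couple 2 (2.31) or 3 (3.39), Reg3a without couple 3 (-1.43) and Saa1 without couple 1 (4.17). Dmbt1 passed with the block whichever couple was left out. In the fits on all 6 untreated libraries the block changed no other call among the 8 genes. Over left-out libraries and couples without the block, Reg3b ran from 2.46 to 4.04, passing without WT of couple 3 (adjusted p = 0.0476). Dmbt1 ran from 2.93 to 3.45 and missed the threshold without any 1 couple or without the filter (3.14, adjusted p = 0.0751). Reg1 changed sign and ran from -1.26 to 0.91, and Itln1 ran from -0.09 to 0.26, with -0.02 and -0.01 in the block without couples 2 and 3. For antibiotic minus untreated couples, Reg3b ran from -0.71 to 0.35 and Reg3g from -0.63 to 0.53 over left-out couples. Quantile normalization of all 8 libraries gave 0.05 for Reg3b and 0.22 for Zg16. Other alternatives kept direction and call. Reg1 had no value under the filter at 5. The causes were not tested.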
